A study of Mus musculus with 3 samples.

Results

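The genes described here encode the constitutive proteasome, its activators and the factors that assemble it. They were taken from the array annotation as every gene whose single symbol begins with Psma, Psmb, Psmc, Psmd, Psme, Psmf or Psmg and a digit. The catalytic subunits of the immunoproteasome, *Psmb8*, *Psmb9* and *Psmb10*, were left out. This rule matched 46 of the 18193 genes on the arrays, and each gene was represented by the probe set of highest mean. A gene was described if its value was above 5.3 on at least 1 array, which held for 44 genes, and all 44 were above it on all 3 arrays. The 2 genes outside were *Psma8* (3.98 on each array), a subunit of the testis, and *Psmb11* (at most 4.02), a subunit of the thymic cortex. The lowest member inside was *Psmc3ip*, with 7.79, 6.98 and 6.62 in BMDM, pTAMs and mTAMs. *Psme2* has a probe set that it shares with *Psme2b* and was therefore not read.

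Expression was measured by arrays in macrophages from a mouse model of 4T1 mammary carcinoma and from culture, with 1 array in each of 3 groups. BMDM, bone marrow-derived macrophages, were differentiated in culture from the marrow of healthy mice and carried no tumor. pTAMs were macrophages of the primary tumor, and mTAMs came from the matched metastatic lung, both taken 5 weeks after 4T1 cells had been placed in the mammary fat pad of BALB/c mice. All 3 groups were sorted for CD11b and for the macrophage antigen encoded by *Adgre1*, no genetic change is named for any of them, and the sources used here do not give how many mice stand behind an array. Culture, tumor and tissue of origin therefore cannot be told apart between BMDM and the TAMs. Between mTAMs and pTAMs, lung against mammary tissue cannot be told apart from metastatic against primary tumor. With 1 array per group there was no replicate, no test between groups and no p-value, so precision is limited by the 3 arrays. All 8 macrophage markers examined, among them *Csf1r* and the genes of the sorted antigens, *Itgam* (CD11b) and *Adgre1*, were above 5.3, the floor for expression, on the 3 arrays.

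The proteasome breaks down proteins that carry ubiquitin chains. Its 20S core is a barrel of stacked α and β rings, and the proteolytic sites lie on the β1, β2 and β5 subunits inside. The 19S particle caps the barrel, binds and removes ubiquitin, unfolds the substrate with a ring of ATPases and threads it into the core. In cells exposed to interferon-γ, and in many immune cells, the 3 catalytic subunits are replaced by those of the immunoproteasome, which favors peptides that fit MHC class I. Other caps, such as PA28 and PA200, open the core without using ATP, and dedicated chaperones build both the core and the cap.

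Most proteasome genes had lower values in TAMs than in BMDM, and the values of mTAMs were in turn below those of pTAMs. Between pTAMs and BMDM, 39 of 44 members were lower by any amount and 4 higher, where this held for 54.3% and 34.6% of 11859 compared genes. Compared genes are those above the floor in at least 1 of the groups set against each other. Between mTAMs and BMDM 42 of 44 members were lower and 1 was higher, against 56.6% and 32.9% of 11945 genes. Between mTAMs and pTAMs 40 of 44 were lower and 2 higher, against 54.1% and 33.8% of 11801 genes. The differences were small. The members had a median log2 difference of -0.34 between pTAMs and BMDM, -0.78 between mTAMs and BMDM and -0.41 between mTAMs and pTAMs, while the medians over all compared genes were -0.05, -0.11 and -0.06. The interquartile range of the members was 0.45, 0.44 and 0.17 in these comparisons, where all compared genes had 0.58, 0.88 and 0.50, so the members lay closest together between mTAMs and pTAMs. The pTAM and mTAM arrays were set against the same BMDM array, so these comparisons are not independent of each other. In sorted cells measured in bulk, fewer cells of a type and less RNA per cell cannot be told apart.

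**Figure D1:**
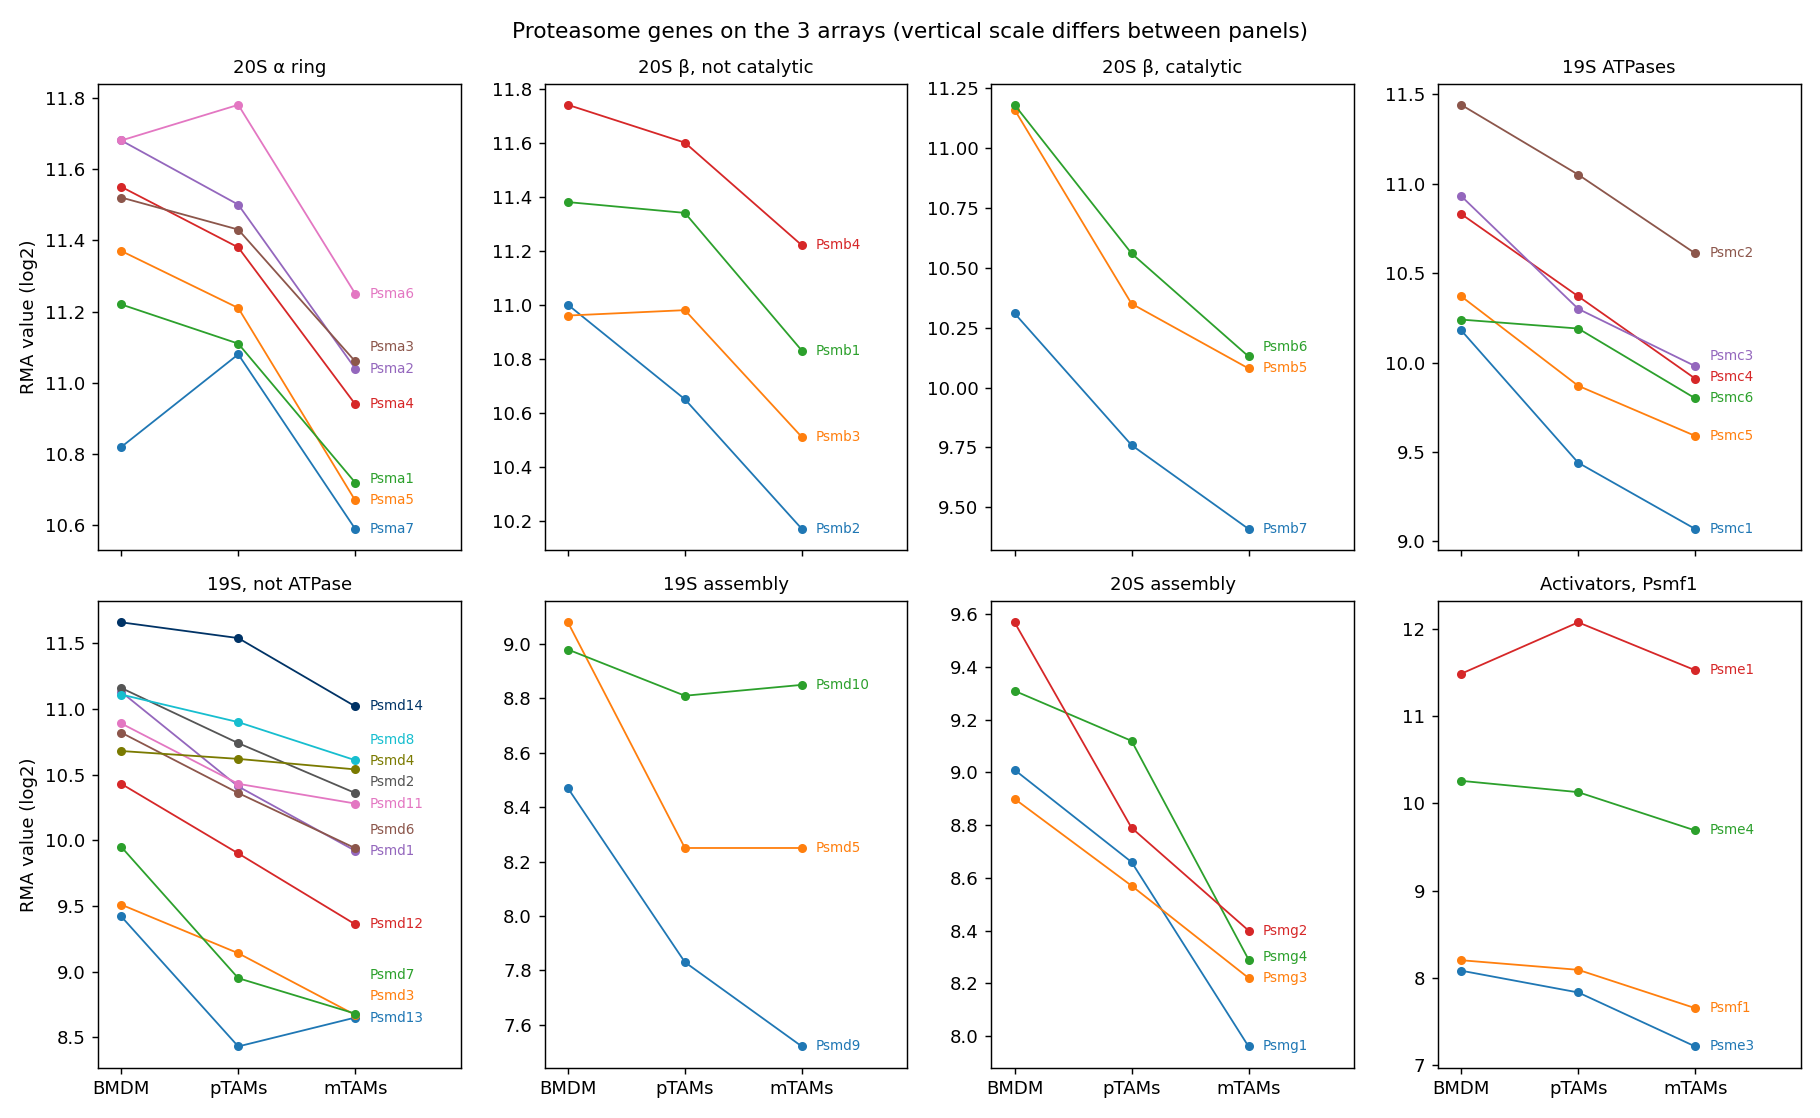
RMA values (vertical axis, log2) of 42 proteasome genes on the BMDM, pTAM and mTAM arrays (horizontal axis), 1 point per array and a line joining the values of 1 gene (no time course), in panels by role with vertical scales of their own. Lines go down from BMDM to mTAMs in every panel, with *Psme1* (11.49, 12.08 and 11.53) the member that is not lower in mTAMs than in BMDM.

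At the threshold of a 2-fold difference, 10 of 44 members (22.7%) were lower in mTAMs than in BMDM, against 14.4% of all compared genes, and none was higher, against 11.5%. In pTAMs, 1 member was at least 2-fold lower than in BMDM, against 7.5%, and none was higher, against 8.78%. Between mTAMs and pTAMs no member reached 2-fold in either direction, against 2.58% of genes lower and 5.36% higher. Few members thus passed the threshold singly, while nearly all lay on the same side of 0. At 1.5-fold, 29 of 44 members were lower in mTAMs than in BMDM, against 28.5% of all compared genes, and 11 were lower in pTAMs than in BMDM, against 17.3%. Of the members, 26 had a mean of at least 10 over the arrays, as had 1509 of the compared genes. Among these, 25 of 26 members were lower in mTAMs than in BMDM, against 60.6% of the 1509 genes, and 26 of 26 were lower in mTAMs than in pTAMs, against 59.9%. At 2-fold, 3 of these 26 were lower in mTAMs than in BMDM, against 11.9%, which is about the same share.

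**Figure D2:**
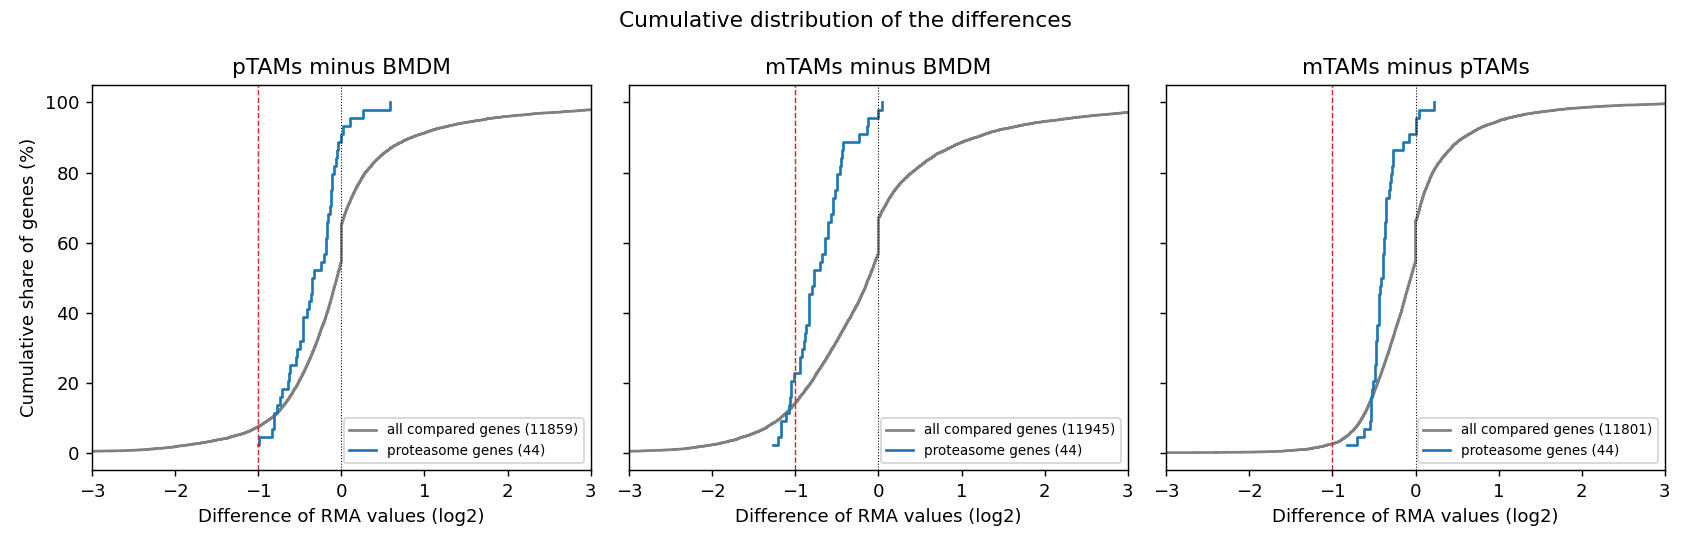
Cumulative share of genes (vertical axis, %) against the log2 difference of RMA values (horizontal axis) for all compared genes and for the 44 proteasome genes, in 1 panel per comparison, with dotted lines at 0 and dashed lines at -1. The curve of the proteasome genes is steep and lies mostly left of 0, with medians of -0.34, -0.78 and -0.41, and its lower end passes -1 in mTAMs minus BMDM.

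Markers of macrophages, other cell types and cell states differed between the same arrays. The 8 macrophage markers summed to 47055, 42544 and 36711 on the linear scale in BMDM, pTAMs and mTAMs, and they did not share a direction. *Adgre1* had 11.93, 10 and 10.06 and *Cd68* 13.07, 12.10 and 12.10, whereas *Aif1* had 8.84, 11.70 and 10.62 and *Itgam* 10.46, 11.90 and 11.61. The summed linear signal of 6 neutrophil markers was 1348 in BMDM, 30758 in pTAMs and 66510 in mTAMs, with 4 of the 6 above the floor in BMDM and 6 in each TAM array. That of 5 markers of epithelium or carcinoma was 189.7, 3384 and 1728, and that of 4 fibroblast markers 140.9, 560.0 and 4183. Of 4 lung epithelium markers, 3, 3 and 4 were above the floor, with sums of 158.0, 159.4 and 4824, and *Scgb1a1* alone (4.12, 4.21 and 12.17) made up nearly all of the last. T cell markers (2 of 3 above the floor on each array) summed to 166.6, 178.8 and 433.1, where *Cd3d* had 5.86, 6.03 and 8.31 and *Cd3e* 6.49, 6.52 and 6.57. Of 2 B cell markers none was above the floor on any array. The 9 cell cycle genes went the other way, with sums of 16108, 3813 and 3563. All 9 were at least 2-fold lower than BMDM in pTAMs and in mTAMs, against 7.5% and 14.4% of all compared genes. The part of these cells and of cell division in the proteasome values was not tested.

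Against BMDM, the catalytic β subunits had the lowest median of the structural parts of the core, with -0.62 in pTAMs and -1.05 in mTAMs. *Psmb5*, the chymotrypsin-like β5 subunit, had 11.16 on the log2 scale in BMDM, 10.35 in pTAMs and 10.08 in mTAMs. *Psmb6*, the caspase-like β1 subunit, had 11.18, 10.56 and 10.13, and *Psmb7*, the trypsin-like β2 subunit, 10.31, 9.76 and 9.41. All 3 were highest in BMDM and lowest in mTAMs. In mTAMs, *Psmb5* was 2.11-fold and *Psmb6* 2.07-fold below BMDM, whereas *Psmb7*, with a log2 difference of -0.90, did not reach 2-fold. In pTAMs the differences from BMDM were -0.81, -0.62 and -0.55 for *Psmb5*, *Psmb6* and *Psmb7*.

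The promoters of *Psmb5* and *Psmb6* are shown since these are the catalytic genes at least 2-fold lower in mTAMs and since both hold the letters searched for. NFE2L1, a membrane-bound factor of the endoplasmic reticulum that is released when proteasome activity is low, is known to act on proteasome genes through antioxidant response elements. The letters TGACNNNGC were searched on both strands of RefSeq promoter windows of the build GRCm38.p6, from 250 bases before to 50 bases after each start. The sequences give the 150 bases before the start, 5′ to 3′ on the strand of the gene, with the match in capitals. That of *Psmb5* lies at chr14:54617996-54618145 on the minus strand and that of *Psmb6* at chr11:70525207-70525356 on the plus strand.
Psmb5: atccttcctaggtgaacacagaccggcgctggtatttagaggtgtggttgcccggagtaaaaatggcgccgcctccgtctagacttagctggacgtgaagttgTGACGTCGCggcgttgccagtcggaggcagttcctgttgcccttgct
Psmb6: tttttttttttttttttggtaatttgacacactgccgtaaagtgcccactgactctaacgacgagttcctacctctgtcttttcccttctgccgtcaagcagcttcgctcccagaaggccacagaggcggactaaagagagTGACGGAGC
The match begins 47 bases before the start in *Psmb5* and 9 bases before it in *Psmb6*. Windows were found for 37 of the 44 members, and 6 of them (16.2%) held the letters, beside 3781 of 27025 genes with a window. The others were *Psmc6*, *Psmd9*, *Psmd12* and *Psme4*. Short stretches around the match of an ATPase gene (chr14:45329588-45329614, plus strand) and of a chaperone gene (chr5:123228150-123228176, plus strand) are given because the 27 bases around their matches lie wholly before the start.
Psmc6: cagccagtaGCTAAGTCAggcattgct
Psmd9: tctagccggTGACCCCGCccacttcca
The match in *Psmc6* is on the opposite strand. The stricter letters TGACTCAGC were in none of the 37 windows and in 0.503% of all genes, and CCAAT, on either strand, was in 14 of 37 (37.8%) beside 41.1% of all genes. The share of members with either set of letters was thus near that of genes in general.

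The rest of the 20S core differed less from BMDM in pTAMs than in mTAMs. The α ring, which gates the barrel, is encoded by *Psma1* to *Psma7*. Its median log2 difference from BMDM was -0.11 in pTAMs and -0.50 in mTAMs, and 5 of 7 members were lower in pTAMs and 7 of 7 in mTAMs. *Psma7* had 10.82 in BMDM, 11.08 in pTAMs and 10.59 in mTAMs, and *Psma6* had 11.68, 11.78 and 11.25. For both, pTAMs were highest and mTAMs lowest. *Psma5*, with 11.37, 11.21 and 10.67, had the largest difference of the ring between mTAMs and BMDM (-0.70), and *Psma2* (11.68, 11.50 and 11.04) the largest between pTAMs and BMDM (-0.18). *Psma3*, with 11.52, 11.43 and 11.06, had the smallest between mTAMs and pTAMs (-0.37).

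The β subunits without a proteolytic site, *Psmb1* to *Psmb4*, were close to the α ring, with medians of -0.09 in pTAMs and -0.54 in mTAMs against BMDM. *Psmb2* was lowest against BMDM, with 11, 10.65 and 10.17. *Psmb3* (10.96, 10.98 and 10.51) was nearly the same in BMDM and pTAMs and lower in mTAMs. *Psmb1* (11.38, 11.34 and 10.83) had the largest difference of these genes between mTAMs and pTAMs (-0.51) and *Psmb4* (11.74, 11.60 and 11.22) the smallest (-0.38). Between mTAMs and pTAMs the medians of the core parts were closer, at -0.46 for the α ring, -0.48 for these β subunits and -0.35 for the catalytic ones.

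**Figure D3:**
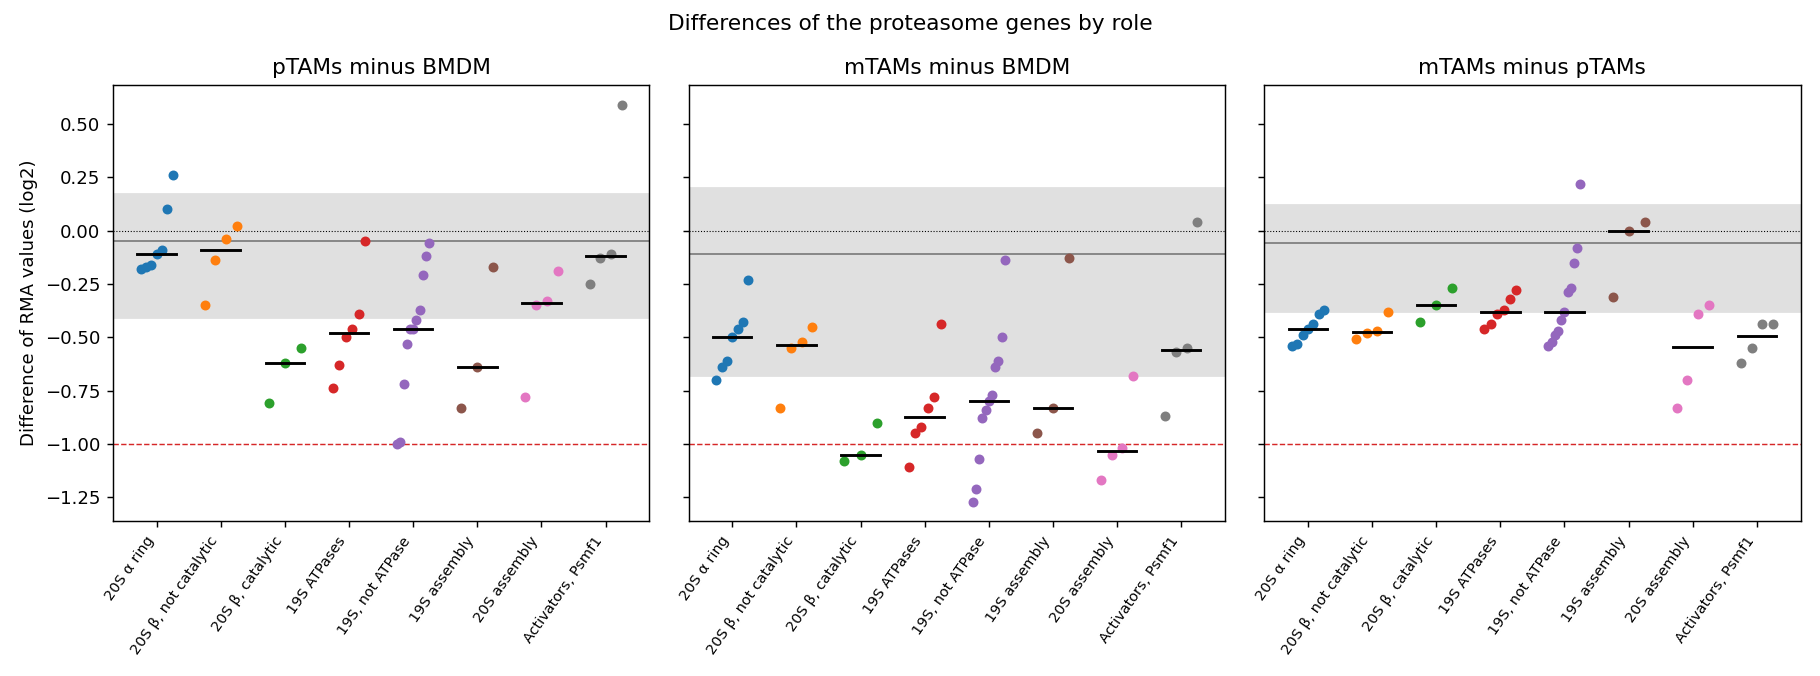
Log2 differences of RMA values (vertical axis) of the proteasome genes by role (horizontal axis) in 3 comparisons, with 1 point per gene and a black bar at the median of each role, where *Psmf1* is plotted with the activators. The gray band and line give the interquartile range and median of all compared genes, and the red dashed line marks 2-fold lower. In pTAMs minus BMDM the α ring has a median of -0.11 and the catalytic β subunits have one of -0.62.

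The genes of the 19S particle were lower in both TAM arrays. Its ATPases, *Psmc1* to *Psmc6*, form the ring that unfolds substrates, and 6 of 6 were lower than BMDM in pTAMs (median -0.48) and in mTAMs (median -0.88). *Psmc1* had 10.18 in BMDM, 9.44 in pTAMs and 9.07 in mTAMs, which made it 2.16-fold lower in mTAMs and the lowest of the ring against BMDM. *Psmc6* (10.24, 10.19 and 9.80) differed least from BMDM. Between mTAMs and pTAMs the ATPases ranged from -0.46 in *Psmc4* (10.83, 10.37 and 9.91) to -0.28 in *Psmc5* (10.37, 9.87 and 9.59).

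Of the 19S subunits that are not ATPases, 11 of 11 were lower in pTAMs (median -0.46) and in mTAMs (median -0.80) than in BMDM. *Psmd7*, which pairs with the deubiquitinating subunit in the lid, had 9.95 in BMDM, 8.95 in pTAMs and 8.68 in mTAMs. It was the lowest member in both comparisons with BMDM, 2-fold lower in pTAMs and 2.41-fold lower in mTAMs. A second probe set of *Psmd7*, of lower signal, gave 6.80, 6.83 and 6.52, differences of 0.03 and -0.28 from BMDM. *Psmd1*, a large scaffold of the base, had 11.13, 10.41 and 9.92 and was 2.31-fold lower in mTAMs. *Psmd12*, a lid scaffold, had 10.43, 9.90 and 9.36 and was 2.10-fold lower in mTAMs. On the probe sets used, all 3 were highest in BMDM and lowest in mTAMs. *Psmd4*, a receptor for ubiquitin chains, was nearly flat, with 10.68, 10.62 and 10.54. *Psmd14*, the deubiquitinating enzyme of the lid, had 11.66, 11.54 and 11.02. *Psmd13*, another lid subunit, was lowest in pTAMs, with 9.42, 8.43 and 8.65, and was the highest member between mTAMs and pTAMs with a difference of 0.22. Its second probe set with clear signal gave 8.58, 7.81 and 7.90.

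Of the 4 chaperones that build the 20S core, 3 were at least 2-fold lower in mTAMs than in BMDM, against 14.4% of all compared genes. With cyclic loess normalization these 3, *Psmg1*, *Psmg2* and *Psmg4*, did not reach 2-fold (-0.88, -0.98 and -0.83). *Psmg1* and *Psmg2* encode a dimer on which the α ring forms. *Psmg1* had 9.01 in BMDM, 8.66 in pTAMs and 7.96 in mTAMs, and *Psmg2* had 9.57, 8.79 and 8.40. *Psmg3* and *Psmg4* encode a second such dimer. *Psmg4* had 9.31, 9.12 and 8.29 and *Psmg3* 8.90, 8.57 and 8.22. All 4 were highest in BMDM and lowest in mTAMs. In mTAMs, *Psmg2* was 2.25-fold, *Psmg1* 2.07-fold and *Psmg4* 2.03-fold below BMDM, and the median of the 4 was -1.04, beside -0.34 in pTAMs. Between mTAMs and pTAMs, *Psmg4* (-0.83) and *Psmg1* (-0.70) had the lowest differences of all members, and with *Psme3* they were the 3 of 44 that were at least 1.5-fold lower there, against 12.5% of all compared genes.

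The chaperones of the 19S base did not share one course. *Psmd9* had 8.47, 7.83 and 7.52 in BMDM, pTAMs and mTAMs. *Psmd5* had 9.08, 8.25 and 8.25, the same in both TAM arrays. *Psmd10*, also known as gankyrin, had 8.98, 8.81 and 8.85. The first was lower in mTAMs than in pTAMs, and the other two were not. Against BMDM, *Psmd5* differed by -0.83 in both TAM arrays, *Psmd9* by -0.64 in pTAMs and -0.95 in mTAMs, and *Psmd10* by -0.17 in pTAMs and -0.13 in mTAMs, the latter being 0.05 with cyclic loess normalization.

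The activators did not move alike. *Psme1*, which encodes the α chain of PA28 and is induced by interferon-γ, had 11.49 in BMDM, 12.08 in pTAMs and 11.53 in mTAMs. It was the only member to exceed BMDM by 1.5-fold or more in pTAMs (1 of 44, against 13.2% of all compared genes), and it was 1.46-fold lower in mTAMs than in pTAMs. Its difference of 0.59 between pTAMs and BMDM, near the 1.5-fold threshold of 0.585, was 0.52 with each array centered on its median. That of 0.04 between mTAMs and BMDM was -0.03 with the same centering. *Psme3*, the nuclear PA28γ, had 8.08, 7.83 and 7.21 and was thus lowest in mTAMs, with a difference of -0.87 from BMDM and -0.62 from pTAMs. *Psme4*, which encodes PA200, had 10.26, 10.13 and 9.69. *Psmf1*, which encodes PI31, a protein that binds the 20S core, had 8.20, 8.09 and 7.65. On these probe sets both were lowest in mTAMs, with differences of -0.57 and -0.55 from BMDM, and differed from BMDM by -0.13 and -0.11 in pTAMs. The 2 other probe sets of *Psme4* with clear signal differed by -0.42 and -0.48 in pTAMs.

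A pair of genes matched the rule by name and are no parts of the proteasome. *Psmc3ip*, which encodes a partner of the strand exchange proteins of recombination, was 2.25-fold lower in mTAMs than in BMDM. *Psme3ip1*, whose product binds PA28γ, had 9.22 on each array. Of all probe sets, 21.4% likewise had the same value on all 3 arrays. Without this pair of genes, 9 of 42 genes were at least 2-fold lower in mTAMs than in BMDM, against 14.4% of all compared genes. Lower by any amount were 41 of 42, against 56.6%.

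Set beside the constitutive catalytic subunits, those of the immunoproteasome took another course. *Psmb9*, the β1i subunit, had 10.10 in BMDM, 11.27 in pTAMs and 11.02 in mTAMs, and was 2.25-fold higher in pTAMs and 1.89-fold higher in mTAMs than in BMDM. *Psmb10*, the β2i subunit, had 10.77, 11.28 and 10.77, and *Psmb8*, the β5i subunit, had 11.53, 11.82 and 11.27. All 3 were highest in pTAMs. The log2 difference of *Psmb9* from BMDM exceeded that of *Psmb6* by 1.79 in pTAMs and by 1.97 in mTAMs. The difference of *Psmb10* exceeded that of *Psmb7* by 1.06 and 0.90, and that of *Psmb8* exceeded that of *Psmb5* by 1.10 and 0.82. These compare changes and not levels, because different probe sets have no common scale. Between mTAMs and pTAMs both genes of each pair were lower in mTAMs. The difference of *Psmb9* minus that of *Psmb6* was 0.18 there. It was -0.16 for *Psmb10* and *Psmb7*, and -0.28 for *Psmb8* (-0.55) and *Psmb5* (-0.27).

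**Figure D4:**
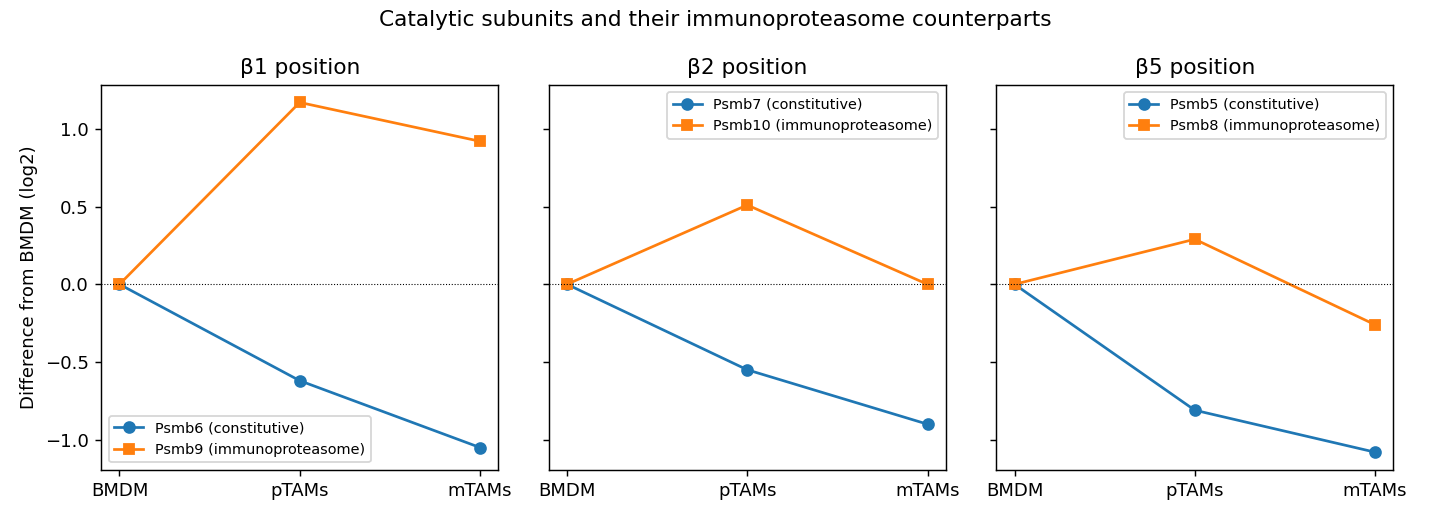
Log2 difference of RMA values from BMDM (vertical axis) on the 3 arrays (horizontal axis) for the constitutive catalytic subunits and the immunoproteasome subunit of the same position, 1 point per array. In pTAMs *Psmb9* lies at 1.17 and *Psmb6* at -0.62, *Psmb10* at 0.51 and *Psmb7* at -0.55, and *Psmb8* at 0.29 and *Psmb5* at -0.81.

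Other genes of the pathway were read from lists. Of 8 measured proteasome-associated genes, 6 were lower than BMDM in pTAMs and 6 in mTAMs, with medians of -0.33 and -0.70, where 54.3% and 56.6% of all compared genes were lower. *Usp14*, a deubiquitinating enzyme bound to the 19S base, had 10.34 in BMDM, 9.54 in pTAMs and 8.96 in mTAMs, and *Txnl1*, a thioredoxin-like protein of the 19S particle, had 11.28, 10.60 and 10.20. Both, of the 8, were at least 2-fold lower in mTAMs than in BMDM, against 14.4% of all compared genes. *Pomp*, the maturation factor of the core, had 11.75, 11.65 and 11.08. *Zfand5*, a zinc finger protein that activates the proteasome, went the other way, with 10.28, 11.35 and 12.29. It was the only one of the 8 at least 2-fold higher than BMDM in pTAMs and in mTAMs, against 8.78% and 11.5% of all compared genes. Of the shuttle factors, which bring ubiquitinated proteins to the proteasome, 4 of 4 measured were lower in both TAM arrays. *Rad23b* had 10.14, 9.67 and 9.07 and *Ubqln2* 10.42, 9.40 and 9.37. Of 5 genes of the p97 segregase, which extracts proteins for degradation, 3 were lower than BMDM in each TAM array and none by 2-fold, a share near those of all compared genes.

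The regulators of proteasome genes were split. *Nfe2l1* had 9.48 in BMDM, 9.04 in pTAMs and 8.82 in mTAMs and so was lower in both TAM arrays than in BMDM. A link between the regulators and the values of the subunits was not tested. *Ngly1*, the deglycosylating enzyme that processes NFE2L1, had 7.94, 8.57 and 9.80 and exceeded BMDM and pTAMs by at least 2-fold in mTAMs. *Nfe2l2*, the regulator of antioxidant genes, had 10.60, 10.30 and 11.27 and was highest in mTAMs. *Maff*, a small partner of both factors, had 6.47, 8.68 and 8.83. Of the 6 measured regulators, 1 exceeded BMDM by at least 2-fold in pTAMs and 2 did so in mTAMs, while none was 2-fold lower. Over all compared genes these shares were 8.78% and 11.5% higher and 7.5% and 14.4% lower. Of 6 heat shock genes, which serve protein folding, 2 in pTAMs and 3 in mTAMs exceeded BMDM by at least 2-fold, against the same 8.78% and 11.5%. These were *Hspa1a* (5.23, 12.14 and 12.59 in BMDM, pTAMs and mTAMs) and *Hspa1b* (7.12, 12.76 and 13.17), with *Dnajb1* (9.49, 9.76 and 10.58) in mTAMs only. *Hsph1*, *Hspa8* and *Hsp90aa1* differed from BMDM by no more than 0.29 in size.

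The only technical spread in the data is that between probe sets of 1 gene. The SD of the log2 difference was 0.35 between pTAMs and BMDM, 0.44 between mTAMs and BMDM and 0.26 between mTAMs and pTAMs. In the 3 comparisons, 22, 37 and 38 of 44 members were lower by more than this SD, and 1, 0 and 0 were higher. Of all compared genes, 28.8%, 34.3% and 33.2% were lower and 18.5%, 19.2% and 17.7% higher by as much. Spread between mice, between sorts and between arrays is not in it. Other probe sets of the members, where their mean was at least 8, were lower in 17 of 17 cases for mTAMs against BMDM, in 13 of 17 for pTAMs against BMDM and in 15 of 17 for mTAMs against pTAMs. No share over the probe sets of all genes was computed beside these counts. With a mean under 8 the counts of lower ones were 12 of 21, 7 of 20 and 13 of 20, while 5, 7 and 4 were higher and 4, 6 and 3 equal. Among the latter, a probe set of *Psme4* gave 4.91, 6.38 and 6.50, higher in both TAM arrays than in BMDM, while the 2 other probe sets of this gene with clear signal were lower (8.64, 8.22 and 7.83, and 9.81, 9.33 and 9.15). The direction over the members held on each of 3 other scalings of the arrays, but its size did not. With cyclic loess normalization 40 of 44 members were lower in mTAMs than in BMDM, against 49.9% of all compared genes, with a median of -0.57. At least 2-fold lower there were 2 members, *Psmd7* and *Psmc3ip*, the latter no part of the proteasome. The share of all compared genes at 2-fold was not computed on this scaling.

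**Figure D5:**
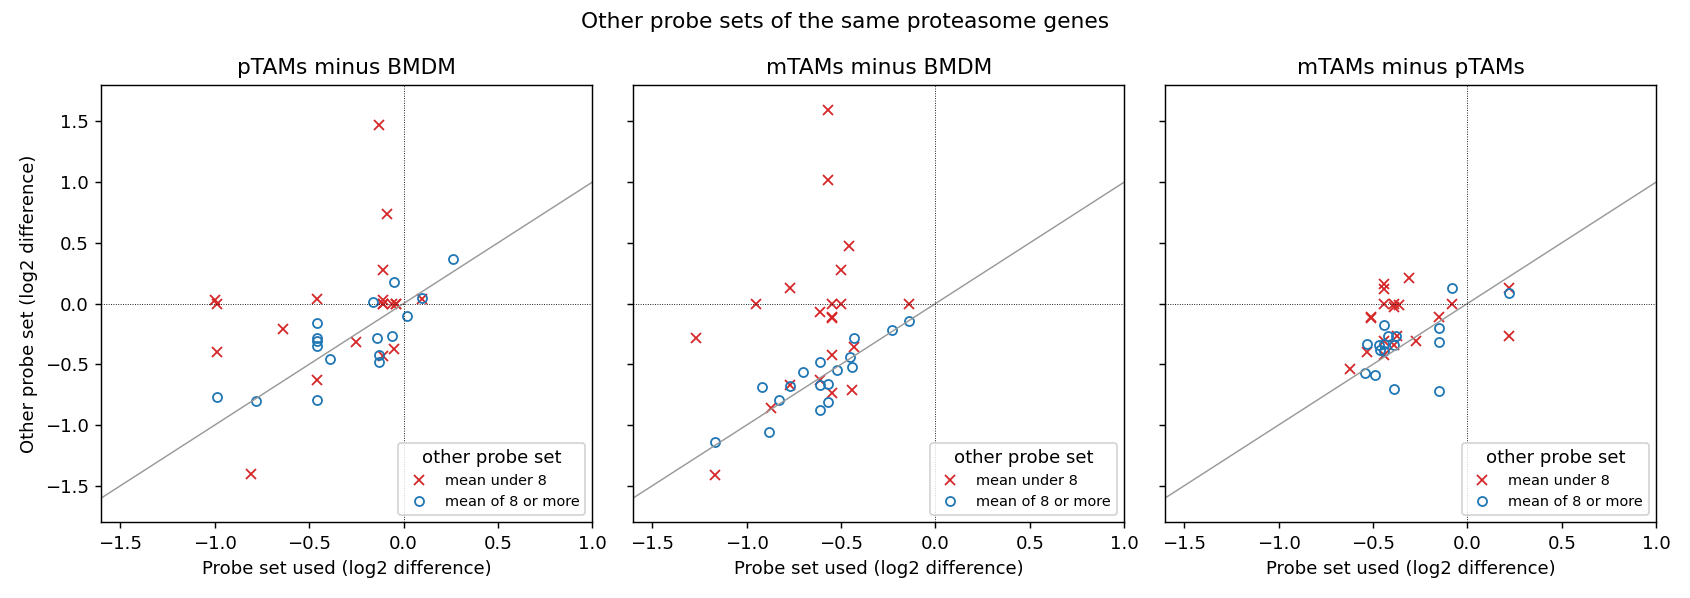
Log2 differences from other probe sets of the proteasome genes (vertical axis) against that of the probe set used (horizontal axis), in 1 panel per comparison, with 1 symbol per probe set and the line of equality. Circles, with a mean of at least 8, lie below 0 in 17 of 17 cases for mTAMs minus BMDM, while crosses, with a mean under 8, spread on both sides of 0.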

How the data were processed

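Expression was measured on Affymetrix mouse arrays, 1 each of BMDM, pTAMs and mTAMs. The authors deposited RMA values on the log2 scale, a method that corrects background, normalizes by quantiles and gives 1 value per probe set, rounded to 2 decimals. No source used here names its version. Quantile normalization hides a shift of the whole transcriptome. Of 45037 probe sets, 34945 carry a single symbol and were used. The probe set with the highest mean stood for its gene. The floor of 5.3 came with the rule for the members, and 91.9% of the values of 86 probe sets for sensory receptors lay at or below it. Genes with a value over the floor on either array were compared, and called at a log2 difference of at least 1. There was no test. Any member could be named, beside genes of the other lists. Full values were given for catalytic subunits, activators, chaperones, called members and the extremes of each role. For the activators and chaperones these are all genes of the role but *Psme2*, which was not read. The members and lists were chosen with earlier results of these data known.

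Each member's gene ID was found in the RefSeq table of GRCm38.p6, which served for names, and promoters came from the RefSeq windows of that build. The array table names no build. Marker sums are sums of antilog values. Alternatives were median centering, quantile and cyclic loess normalization, averaged probe sets, no probe sets named as shared, other floors and thresholds, and stricter symbols. The mean of the probe sets over the floor, and the share among genes with a mean of at least 10, were added with the data in view. The split of other probe sets at a mean of 8 was not fixed beforehand. The tools were limma 3.58.1 under R 4.3.3, and pandas 2.3.3, numpy 2.4.6 and matplotlib 3.10.9 under Python 3.11.15.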

Additional observations from a re-analysis of the deposited data

Results flagged for a closer look

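*Psma6*, *Psma7* and *Psmb3* were higher than BMDM in pTAMs and lower than BMDM in mTAMs. The signs of the 2 groups of TAMs against the same BMDM array were thus opposite. The log2 differences of these genes between mTAMs and pTAMs were -0.53, -0.49 and -0.47. Those between pTAMs and BMDM were 0.10, 0.26 and 0.02, all smaller than the SD of 0.35 between probe sets in that comparison. With 1 array per group the difference between the groups was not tested. For *Psmb3* the value in pTAMs was 0.02 above BMDM, and it was -0.05 with each array centered on its median and -0.10 on the second probe set of the gene. For *Psma7* the second probe set gave 0.37 in pTAMs and -0.22 in mTAMs against BMDM, and cyclic loess normalization 0.32 and -0.0018. For *Psma6* the second probe set with clear signal gave 0.05 and -0.28.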

How the results depend on the processing

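Of 12 alternatives, 1 of them added after seeing the data, 8 could change a median of the members, since thresholds and raised floors leave it as it is. Under those 8 the median stayed below 0 in each comparison. It ranged from -0.41 to -0.23 for pTAMs against BMDM, from -0.85 to -0.56 for mTAMs against BMDM and from -0.43 to -0.26 for mTAMs against pTAMs. Cyclic loess normalization moved the median of all compared genes in mTAMs against BMDM from -0.11 to 0.0012, and the median of the members relative to it from -0.67 to -0.57. Counts of members called were less stable, as many differences lie near 2-fold. Of 10 members at least 2-fold lower in mTAMs than in BMDM, the count was 2 with cyclic loess normalization, 6 with all probe sets of a gene averaged, 29 at 1.5-fold and 0 at 3-fold. The single member lower in pTAMs than in BMDM, *Psmd7*, lay at the threshold, and the count was 2 with each array centered on its median, 0 with quantile or cyclic loess normalization, 11 at 1.5-fold and 0 at 3-fold. Shares of all compared genes called were computed only on the values as deposited, at 2-fold and at 1.5-fold. At 1.5-fold, 1 member was higher in pTAMs than in BMDM and 3 were lower in mTAMs than in pTAMs. None of these medians and counts reversed, but small differences of single members did change sign. Between mTAMs and BMDM, cyclic loess normalization moved *Psmd4* from -0.14 to 0.08 and *Psmd10* from -0.13 to 0.05. Centering each array on its median moved *Psme1* from 0.04 to -0.03 there. Cyclic loess normalization gave medians of -0.26, -0.57 and -0.26, the last more than 1.5 times smaller than the -0.41 reported. No paired analysis was possible because each group has 1 array. For the same reason no array could be left out of a comparison. The members lay at or above 6.62, well over the floor, so background limits them little.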
